A study of Mus musculus with 16 samples.

Results

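The accessible chromatin around 10 SOX transcription factor genes was compared between neuroendocrine (NE) and non-NE small cell lung cancer (SCLC) cells of the mouse. The genes were *Sox1*, *Sox2*, *Sox4*, *Sox5*, *Sox6*, *Sox9*, *Sox11*, *Sox13*, *Sox17* and *Sox21*. A peak, meaning a stretch of DNA with many ATAC-seq reads, was counted for a gene when its centre lay nearer to a transcription start site of that gene than to the start site of any other protein-coding gene. By this rule 289 of the 80367 peaks listed as differing between both cell populations belonged to the 10 genes, and each gene had at least 2 of them. The nearest gene is a label of position, and no measurement here ties a peak to the activity of that gene.

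ATAC-seq uses the Tn5 transposase to insert sequencing adaptors where DNA is not packed away, so that reads gather at accessible sites. The mice (*TKO*;*Hes1* GFP/+) bore lung tumors in which floxed alleles of *Rb*, *p53* and *p130* were deleted by Cre from an adenovirus (Ad-CMV-Cre) instilled into the trachea of the adult animal. In these mice 1 copy of *Hes1*, a target of Notch signaling, carried GFP. GFP high cells are the non-NE population and GFP neg cells the NE population, and both were sorted by the level of GFP from mice with the same floxed alleles, virus and reporter. There were 4 pairs of populations from 3 mice, since 1 mouse gave 2 pairs, which made 8 libraries, each run on 2 lanes. The tumors of a mouse were pooled before the sort, so that a library mixes several tumors. The CMV promoter is active in many cell types. Antibodies to leukocyte, endothelial and erythroid surface proteins were part of the sort, and the sorted cells are defined by GFP and surface markers and not by a record of Cre activity. The labels give neither age nor strain.

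SOX proteins bind DNA through an HMG box, a domain that sits in the minor groove and bends the helix, and related members form groups named by letters. SoxB1 proteins (*Sox1*, *Sox2*) keep progenitor cells of the nervous system and of several epithelia, the airway included, in an undifferentiated state, and SoxB2 proteins (*Sox21*) can act against them. SoxC proteins (*Sox4*, *Sox11*) are active in newly formed neurons and in many tumors. SoxD proteins (*Sox5*, *Sox6*, *Sox13*) have no activation domain of their own and change the output of other factors, SOX9 of the SoxE group guides cartilage, the distal lung bud and several stem cells, and SoxF proteins (*Sox17*) act in endoderm and endothelium.

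Of the 289 peaks, 145 were more accessible in GFP high cells (opened) and 144 less accessible (closed). Opened peaks were 50.2% of the SOX peaks (Wilson 95% interval 44.4% to 55.9%, which covers counting only and takes neighbouring peaks as independent). Among all listed peaks, 50.8% were opened and 49.2% closed. The 2 sets differed in position, since 64.0% of the SOX peaks and 21.1% of all listed peaks lay more than 100 kb from the start site. Single SOX genes had opened shares on either side of these totals. *Sox9* had 61 opened and 19 closed peaks, *Sox13* 9 and 3, *Sox6* 17 and 10, and *Sox17* 3 and 0. *Sox2* had 18 opened and 15 closed peaks, *Sox5* 14 and 18, and *Sox4* 23 and 30. *Sox11* had 40 closed peaks, *Sox1* 7 and *Sox21* 2, and these 3 genes had no opened peak. The direction of most *Sox6* peaks turned (7 opened and 9 closed) when start sites of genes of any type were used. For *Sox2*, *Sox4* and *Sox5* it turned when an adjusted p under 1e-05 was required, which left *Sox2* 11 opened and 12 closed peaks, *Sox4* 18 and 16, and *Sox5* 12 and 11. The opened share over all 10 genes depended on 2 uneven ones, because it was 40.2% of 209 peaks without *Sox9* and 58.2% of 249 peaks without *Sox11*, both alternatives chosen after seeing the data.

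The size of a change is given as the log2 of accessibility in GFP high cells divided by that in GFP neg cells (log2 fold change), with the standard error (SE) of the deposited DESeq2 fit, and the depth behind it is the normalised read count, averaged over all libraries. Listed peaks differ at least 2-fold between the populations and have adjusted p-values below 0.001, so that a site without a listed peak may be equally open in both populations, closed in both, or too weak to call. The opened SOX peaks had a median log2 fold change of 3.38 and the closed ones of −2.72, beside 2.92 and −2.66 over all opened and all closed listed peaks. Changes of more than 16-fold (a log2 of 4) were found at 46 of the 145 opened SOX peaks (31.7%, beside 23.3% of all opened peaks) and at 9 of the 144 closed ones (6.25%, beside 2.62% of all closed peaks). The SOX peaks were also shallower, with a median normalised count of 29.1 when opened and 18.6 when closed, beside 40.7 and 25.8 over all listed peaks. A normalised count under 10 lay behind 52 of the 289 (18.0%, beside 9.42% of all listed peaks), and the fold changes of these have wide errors.

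**Figure D1:**
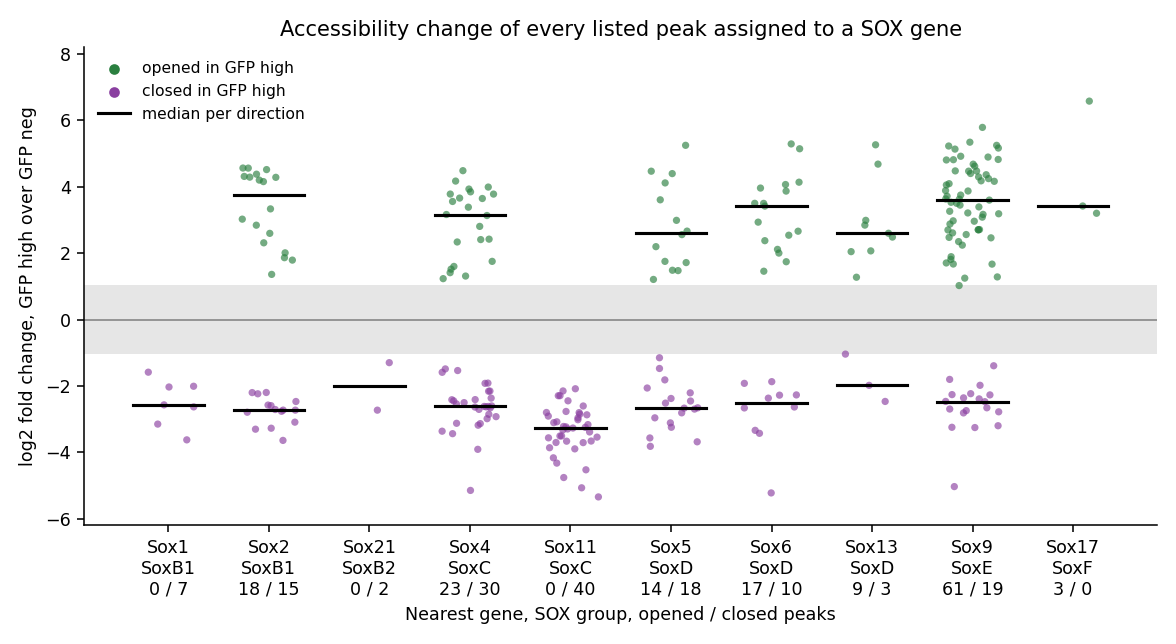
Log2 fold change (GFP high over GFP neg) of each of the 289 listed peaks, by nearest SOX gene, with the SOX group and the numbers of opened and closed peaks below each gene. Points are single peaks spread sideways for legibility, black bars are medians per direction, and the grey band holds the changes too small to be listed. *Sox11* has 40 closed and no opened peaks, and *Sox9* 61 opened and 19 closed.

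*Sox9* (chr11:112782224-112787760, plus strand, mm10) had the most peaks of the 10 genes, 80, which ranked 4 among the 14598 protein-coding genes with a listed peak. Its promoter was more accessible in GFP high cells. The peak over the start site (chr11:112781927-112782544) opened with a log2 fold change of 3.08 ± 0.19 (SE; 8.48-fold; normalised count 207). Shorter peaks 0.5 and 0.8 kb downstream of the start site opened by 1.67 ± 0.46 and 1.284 ± 0.33, and another 1.1 kb upstream by 3.60 ± 0.35. The openings were thus smaller at the shorter downstream peaks, which were also shallower (normalised counts of 19.4 and 38.1). This difference was not tested, and the peak over the start site itself reaches into the gene. Introns of the noncoding gene *BC006965*, which also hold the peak 1.1 kb upstream, had larger openings farther upstream. There, peaks 15.1, 42.4 and 49.6 kb before the start site opened by 5.17 ± 0.35, 5.34 ± 0.52 and 4.48 ± 0.31. Closed peaks lay in introns of the same gene 69.2 kb (−5.03 ± 1.24) and 114.4 kb (−2.26 ± 0.60) upstream.

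Further out, opened peaks of *Sox9* reached from 837.7 kb upstream to 383.3 kb downstream of the start site. A run of 20 opened peaks without a closed peak between them covered 178 kb from 36.8 to 214.8 kb downstream (median log2 fold change 3.76). Farther downstream it was followed by 1 closed and 3 opened peaks up to 233.8 kb, by 7 closed peaks in a row over 38 kb (chr11:113025492-113063494; −3.25 to −1.39) and then by 6 opened peaks in a row up to 350.3 kb. The last of these 6, in an intron of *2610035D17Rik*, had the highest normalised count near *Sox9*, 338, with a log2 fold change of 1.81 ± 0.15. Beyond it, 5 of the last 6 peaks were closed. The largest single values rested on few reads: an opened peak at 451.8 kb upstream (5.79 ± 1.25) and a closed peak at 69.2 kb upstream (−5.03 ± 1.24) had normalised counts of 5.22 and 4.67. Chromosome 11 as a whole was rich in opened peaks, which were 71.1% of its 5266 listed peaks and 79.9% of the 3874 beyond position 50 Mb that do not belong to *Sox9*. The *Sox9* share, 76.3%, lay between these, and the part that the chromosome plays in it was not tested.

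**Figure D2:**
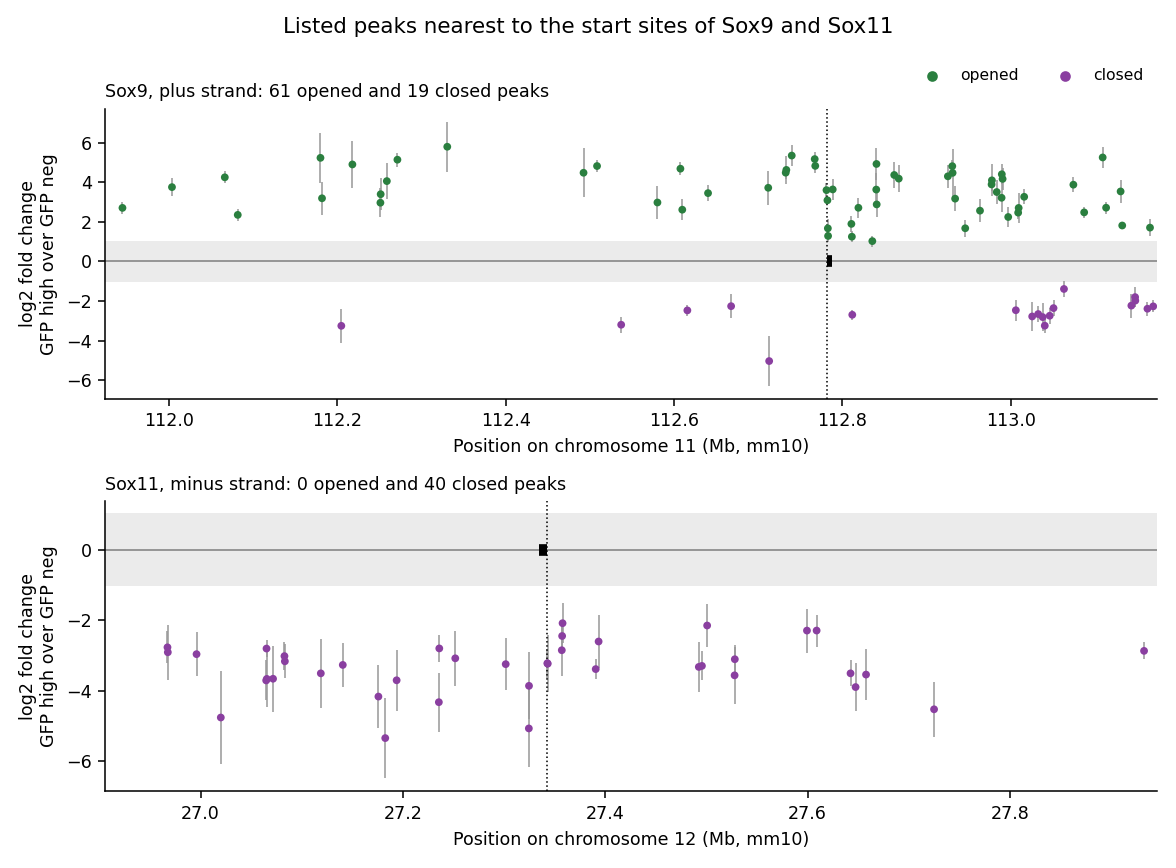
Log2 fold change (GFP high over GFP neg) of the listed peaks by position (Mb, mm10) across the interval in which *Sox9* (top) or *Sox11* (bottom) has the nearest start site. Error bars are the deposited SE, dotted lines are start sites, black blocks are genes and the grey band marks changes too small to be listed. Opened peaks stand on both sides of *Sox9* with blocks of closed peaks at the right, and the 40 *Sox11* peaks are closed over 966 kb.

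*Sox11* lies at chr12:27334264-27342574 on the minus strand. Its 40 peaks were closed in GFP high cells over 966 kb, from 375.3 kb downstream to 590.0 kb upstream. Their log2 fold changes ran from −5.34 to −2.09, with a median of −3.26. The largest change (chr12:27182440-27182594; −5.34 ± 1.14) had a normalised count of 9.59. Of the 652 protein-coding genes with at least 20 assigned peaks, 52 (7.98%) had closed peaks alone, and the largest of these had 51. *Sox11* was among the 5 with 40 or more. The promoter held 2 closed peaks, 0.2 and 0.5 kb before the start site, with log2 fold changes of −3.22 ± 0.41 and −3.23 ± 0.82 at normalised counts of 36.3 and 38.2. The deepest peak lay 277.4 kb downstream in an intron of *Gm9866* (chr12:27064976-27065334; −2.80 ± 0.25; count 103), and the farthest upstream one was nearly as deep (chr12:27932370-27932757; −2.87 ± 0.24; count 86.6). Most *Sox11* peaks were shallow, with a median normalised count of 13.5 and 14 of 40 under 10, and their median SE of 0.70 was larger than that of the SOX peaks together, 0.49. On chromosome 12, 43.2% of the 3603 listed peaks were opened.

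The other SoxC gene did not follow *Sox11*. *Sox4* (chr13:28948919-28953713, minus strand) had 53 peaks, which ranked 19 among all genes, and they alternated between opened and closed 22 times along 771 kb. The peak over its start site (chr13:28953528-28954059) was the deepest, with a normalised count of 336, and opened by 1.31 ± 0.16 (2.48-fold). The largest opening was 243.6 kb upstream in an intron of *Cdkal1* (chr13:29196944-29197589; 4.48 ± 0.24; 22.4-fold; count 239). Downstream, in an intron of the noncoding gene *2610307P16Rik*, a group of 3 opened peaks between 214.7 and 216.2 kb (3.13 ± 0.53, 3.56 ± 0.31 and 3.16 ± 0.18) stood beside 3 closed ones between 229.3 and 234.8 kb. The deepest of the closed ones (chr13:28718526-28719204; count 267) had a log2 fold change of −3.14 ± 0.21. Nearer the gene, closed peaks lay 25.3, 27.5 and 27.8 kb downstream (−2.93 ± 0.48, −2.99 ± 0.41 and −3.91 ± 0.47). Close to them were opened peaks 23.2 and 20.2 kb downstream (3.78 ± 0.51 and 3.93 ± 1.07), the last at a count of 6.28. The largest closed change (chr13:28672478-28672613; −5.15 ± 1.22) had a normalised count of 7.51.

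*Sox2* (chr3:34650405-34652461, plus strand), the SoxB1 gene of airway progenitors, had no listed peak at its promoter. The nearest was an opened 73-bp peak 15.7 kb downstream, close to a start site of the overlapping noncoding gene *Sox2ot* (2.31 ± 0.59; count 14.4). The other 32 lay between 97.3 and 518.5 kb downstream, and although the interval in which *Sox2* has the nearest start site begins at 34365864, none was listed upstream. The deepest peak (chr3:34747336-34748080; count 248) opened by 1.36 ± 0.17, and its neighbour 103.5 kb downstream (count 137) by 3.02 ± 0.23. Farther out the directions came in groups. From 299.7 to 356.7 kb downstream 8 of 9 peaks were closed. The deepest of these was chr3:34959016-34959512 (−3.30 ± 0.24; count 126) and the largest closed change chr3:34960462-34960652 (−3.64 ± 0.55; count 21.9), while the last 5 peaks, from 489.7 to 518.5 kb, were opened. Among these was the largest opening of the gene (chr3:35145617-35146027; 4.56 ± 0.33; 23.7-fold; count 93.7). With 54.5% opened, *Sox2* stood beside 41.7% of the 4665 listed peaks of chromosome 3.

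**Figure D3:**
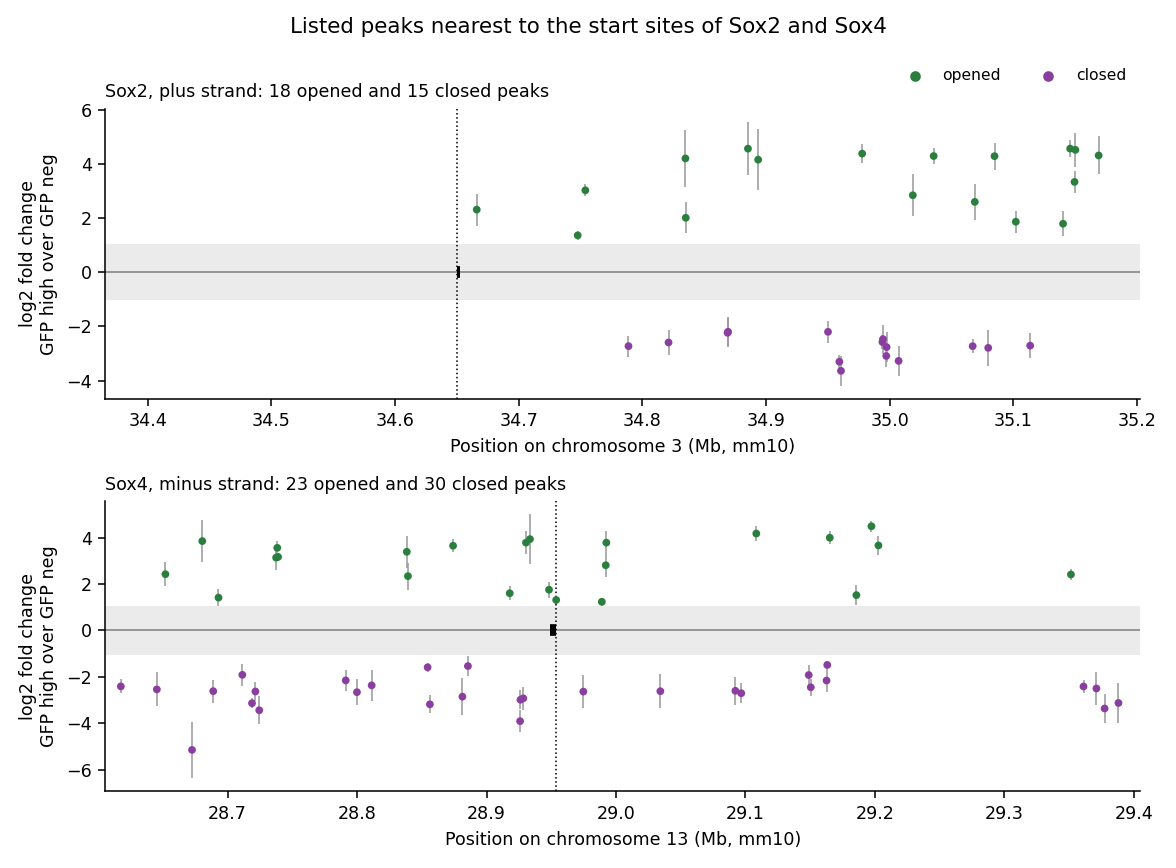
Log2 fold change (GFP high over GFP neg) of the listed peaks by position (Mb, mm10) across the interval in which *Sox2* (top) or *Sox4* (bottom) has the nearest start site; bars are the deposited SE, dotted lines start sites, black blocks genes, and the grey band holds unlisted changes. Peaks of both directions lie between each other, and *Sox2* has 33 peaks downstream and none upstream.

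The other SoxB genes among the 10, *Sox1* and *Sox21*, had closed peaks alone. *Sox1* (chr8:12395295-12400126), a neural progenitor gene, had 7 over 94.8 kb, from −3.63 to −1.59, on a chromosome where 49.98% of listed peaks were opened. Its promoter peak (chr8:12395138-12395791) was the deepest, with a normalised count of 89.8 and a log2 fold change of −2.01 ± 0.23, and 2 more lay in introns of *Sox1ot*. *Sox21* (chr14:118233232-118237030) had 2 closed peaks 5.9 and 6.6 kb downstream of its start site, the farther one deeper and with the larger change (−2.73 ± 0.29 at a count of 76.7, against −1.30 ± 0.30 at 53.2).

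The SoxD genes had peaks of both directions. *Sox5* (chr6:143828425-144781977, minus strand) has start sites at 143947106 and, upstream of it, between 144209452 and 144209568. At the upstream group the promoter peak (chr6:144209331-144209733) opened by 1.21 ± 0.24, whereas 3 peaks just before the downstream start site closed. These lay 1.2, 1.6 and 1.9 kb from it, with log2 fold changes of −3.11 ± 0.29, −2.96 ± 0.33 and −3.82 ± 0.58, and belonged to 8 closed peaks in a row over 198 kb. The last 5 peaks toward the far upstream end were opened, among them chr6:144491644-144492340 (4.40 ± 0.29; count 158) and chr6:144620956-144621804, the deepest (4.12 ± 0.20; count 305; adjusted p of the deposited DESeq2 test 1.23e-92). Both lie within the annotated gene, which runs beyond the start sites of the basic transcript set. A still larger opening, 388.8 kb downstream, was less sure (5.25 ± 0.73; count 25.7).

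*Sox6* (chr7:115470872-116038796, minus strand) had 17 opened peaks among 27. A run of 9 opened peaks over 142 kb ended at the upstream start sites. The promoter peak at the start site 116031047 (chr7:116030949-116031252) opened by 2.11 ± 0.34, and 4 more peaks within 3.6 kb upstream of it by 1.46 to 2.54, among them the deepest of the gene (chr7:116033737-116034144; 1.46 ± 0.24; count 111). In the same run, a peak 5.5 kb before the start site at 115995086 had the largest change (chr7:116000417-116000770; 5.29 ± 0.55; count 47.3). On the 3′ side of that run the 10 closed peaks of *Sox6* were mixed with its other 8 opened ones, whose log2 fold changes were 2.38 to 4.14. The closed peak with the largest change (−5.22 ± 1.23) had a normalised count of 5.31. *Sox13* (chr1:133382303-133424377, minus strand) had 9 opened peaks in a row, from an intron to 24.4 kb upstream, and 3 closed peaks outside that run, with changes of up to −2.47 ± 0.68. Its promoter peak (chr1:133423769-133424527; count 153) opened by 1.27 ± 0.24, an intronic peak 6.0 kb downstream (count 172) by 2.05 ± 0.20, and a peak 8.0 kb upstream (count 30.9) by 5.26 ± 0.68.

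**Figure D4:**
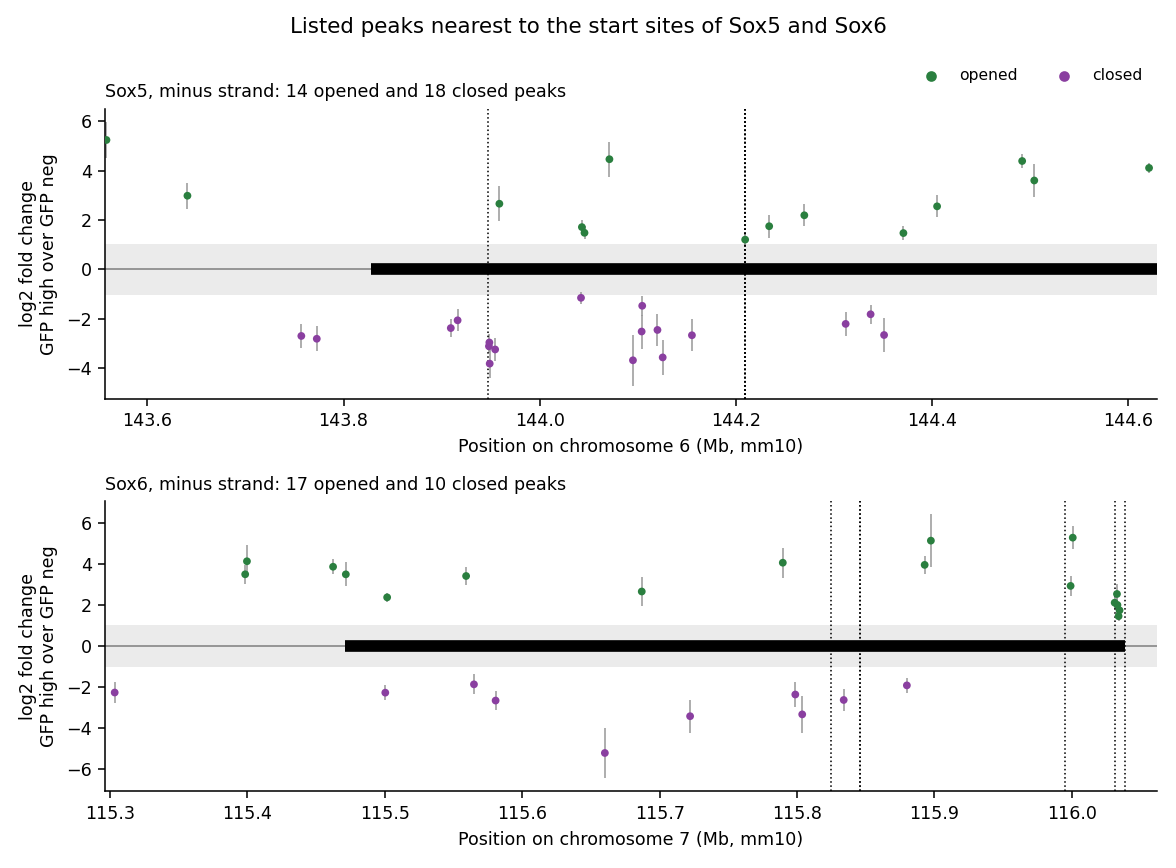
Log2 fold change (GFP high over GFP neg) of the listed peaks by position (Mb, mm10) across the interval in which *Sox5* (top) or *Sox6* (bottom) has the nearest start site; bars are the deposited SE, dotted lines start sites, black blocks genes, and the grey band holds unlisted changes. At *Sox5*, 3 closed peaks stand at the left start site and an opened peak of 1.21 at the right ones; at *Sox6*, opened peaks gather at the right end of the gene.

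*Sox17* (chr1:4490931-4497354), the SoxF gene of endoderm and endothelium, had 3 opened peaks 119.3 to 126.1 kb upstream and none nearer. The largest change among all 289 peaks was here (chr1:4616628-4616738; 6.58 ± 1.16), at a normalised count of 9.29, while the deepest of the 3 (count 24.1) opened by 3.20 ± 0.50. Of 7 endothelial marker genes, each had a listed peak (66.5% of all protein-coding genes did). Together they had 19 opened and 50 closed peaks (27.5% opened, beside 50.8% of all listed peaks), 23 of the closed ones at *Cdh5*. *Tie1* (3 opened, 0 closed) and *Cldn5* (3 and 2) had more opened peaks, and these 3 genes were picked for naming with their values known. The promoter of *Kdr* opened (1.68 ± 0.17) and peaks within 1 kb of start sites of *Erg* (−2.13 ± 0.22) and *Tek* (−2.96 ± 0.58) closed. The part of endothelial cells in the *Sox17* peaks was not tested.

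A listed peak within 1 kb of a start site of their own was found for 7 of the 10 SOX genes. It was opened at *Sox4*, *Sox5*, *Sox6*, *Sox9* and *Sox13*, and closed at *Sox1* and *Sox11*. Over all 21938 protein-coding genes, 26.5% had an opened and 8.42% a closed peak there. Opened promoter peaks of *Sox4*, *Sox5* and *Sox13* were small changes (log2 fold changes of 1.21 to 1.31), that of *Sox6* was 2.11, and those of *Sox9* ran from 1.284 to 3.08.

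Promoter sequence is shown for *Sox4*, *Sox6*, *Sox11* and *Sox1*, which had a listed peak within 1 kb of a start site. It is the part of the promoter peak upstream of the start site (at most 300 bases, GRCm38, 5′ to 3′ on the strand of the gene). The *Sox11* peak lies upstream of the start site without covering it. *Sox5*, *Sox9* and *Sox13* also had a promoter peak, and their sequences are not shown. Capitals mark short strings known from the binding sites of factor families, searched on both strands: CCATTGT or CCTTTGT (SOX), GGAATG (TEAD), TGACTCA (AP-1), TGTTTAC (FOX), TGGGAA (RBPJ), CACTTAA (NKX2), AACCGGTT (GRHL), CAGCTG (E-box) and ATGCAAAT (POU). The opened *Sox4* piece holds CAGCTG followed by GGAATG and then TGGGAA, and the opened *Sox6* piece CCTTTGT. The closed *Sox1* piece holds the reverse complement of TGGGAA, and the closed *Sox11* piece none of these strings.
*Sox4*, chr13:28953714-28954013, minus strand, opened: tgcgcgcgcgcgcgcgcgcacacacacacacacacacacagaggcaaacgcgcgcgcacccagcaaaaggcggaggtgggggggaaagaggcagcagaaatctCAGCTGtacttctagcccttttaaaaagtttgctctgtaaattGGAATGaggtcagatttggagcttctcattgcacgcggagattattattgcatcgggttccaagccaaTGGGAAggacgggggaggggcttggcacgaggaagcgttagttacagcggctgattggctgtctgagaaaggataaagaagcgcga
*Sox6*, chr7:116031048-116031252, minus strand, opened: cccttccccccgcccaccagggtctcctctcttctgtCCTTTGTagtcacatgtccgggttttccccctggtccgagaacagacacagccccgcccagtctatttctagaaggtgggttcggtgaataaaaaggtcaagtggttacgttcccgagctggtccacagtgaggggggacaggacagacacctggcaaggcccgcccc
*Sox11*, chr12:27342648-27342858, minus strand, closed: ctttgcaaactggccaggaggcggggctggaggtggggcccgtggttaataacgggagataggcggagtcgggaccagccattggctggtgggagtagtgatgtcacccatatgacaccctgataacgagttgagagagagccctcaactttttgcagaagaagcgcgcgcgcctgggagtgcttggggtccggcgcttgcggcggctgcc
*Sox1*, chr8:12395138-12395294, plus strand, closed: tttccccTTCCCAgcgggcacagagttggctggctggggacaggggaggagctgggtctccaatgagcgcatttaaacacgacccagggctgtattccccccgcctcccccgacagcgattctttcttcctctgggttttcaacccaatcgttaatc

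For the distal sites, the central 200 bp are given of the opened peak of *Sox9*, *Sox5*, *Sox4* and *Sox2* and the closed peak of *Sox2* whose 95% interval lay farthest from 0, all on the plus strand of GRCm38 and with the same strings in capitals. The peaks were picked after their values were seen. The *Sox5* window holds the reverse complement of CCTTTGT, the *Sox9* window the reverse complement of TGGGAA and the closed *Sox2* window TGTTTAC, while none of the strings is in the opened *Sox4* and *Sox2* windows. All but the *Sox2* windows lie in introns, that of *Sox9* in *BC006965* and that of *Sox4* in *Cdkal1*.
*Sox9*, 15.1 kb upstream, chr11:112767014-112767213, opened: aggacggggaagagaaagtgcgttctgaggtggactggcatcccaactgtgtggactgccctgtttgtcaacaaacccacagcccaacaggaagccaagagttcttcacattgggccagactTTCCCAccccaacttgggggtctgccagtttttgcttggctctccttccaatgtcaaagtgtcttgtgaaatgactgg
*Sox5*, 282.4 kb upstream, chr6:144491892-144492091, opened: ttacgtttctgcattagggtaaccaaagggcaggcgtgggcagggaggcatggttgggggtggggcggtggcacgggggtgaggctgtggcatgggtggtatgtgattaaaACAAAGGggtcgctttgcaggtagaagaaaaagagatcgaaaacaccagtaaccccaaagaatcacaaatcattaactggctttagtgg
*Sox4*, 243.6 kb upstream, chr13:29197167-29197366, opened: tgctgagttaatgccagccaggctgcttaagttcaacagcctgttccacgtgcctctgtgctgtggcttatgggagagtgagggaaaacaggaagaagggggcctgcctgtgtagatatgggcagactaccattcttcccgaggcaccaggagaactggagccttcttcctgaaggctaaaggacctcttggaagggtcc
*Sox2*, 495.4 kb downstream, chr3:35145722-35145921, opened: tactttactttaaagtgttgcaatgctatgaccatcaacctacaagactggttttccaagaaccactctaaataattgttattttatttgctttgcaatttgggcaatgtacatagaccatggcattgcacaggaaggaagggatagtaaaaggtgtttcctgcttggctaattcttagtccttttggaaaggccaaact
*Sox2*, 308.9 kb downstream, chr3:34959164-34959363, closed: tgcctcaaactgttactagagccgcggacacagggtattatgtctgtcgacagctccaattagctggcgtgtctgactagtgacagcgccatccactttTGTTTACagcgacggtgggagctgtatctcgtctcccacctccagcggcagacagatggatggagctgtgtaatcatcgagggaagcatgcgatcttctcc

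In the central 200 bp of all 289 peaks, the 7-letter SOX strings were found in 16 of 145 opened peaks (11.03%, beside 7.34% of all opened listed peaks) and 20 of 144 closed peaks (13.9%, beside 12.6%). With the whole peak searched, the shares were 15.9% of opened and 13.9% of closed SOX peaks, so that the order of the directions turned. The share over all listed peaks is not given for this setting. The 6-letter core strings were in 30.3% of opened and 34.0% of closed SOX peaks, beside 24.0% and 35.6% of all. Single genes had higher and lower counts of the 7-letter strings. They were in 6 of the 14 opened *Sox5* peaks, 5 of the 10 closed *Sox6* peaks and 7 of the 40 closed *Sox11* peaks. Of the opened *Sox9* and *Sox2* peaks, 5 of 61 and 1 of 18 held one. These genes were picked after their values were seen, and differences between genes were not tested. GGAATG of TEAD was in 17.2% of opened and 8.33% of closed SOX peaks, beside 18.2% and 8.77% of all opened and closed listed peaks. TGACTCA of AP-1 was in 8.28% and 20.8%, beside 8.45% and 21.2%, and CAGCTG in 9.66% and 20.8%, beside 12.0% and 22.6%. TGTTTAC of FOX was in 9.66% of opened and 15.3% of closed SOX peaks, beside 6.84% and 9.71%. TGGGAA of RBPJ was in 17.9% of opened (26 of 145) and 21.5% of closed SOX peaks (31 of 144). Over all opened and closed listed peaks the shares were 20.7% and 16.3%, and the different order was not tested. In RefSeq promoters of the same assembly (250 bases before to 50 after a start), the 7-letter SOX strings were in 9.28% of 32851 promoters. Entries matched 8 of the 10 genes, *Sox9* and *Sox17* being without one, and *Sox2*, *Sox5* and *Sox6* held such a string in at least 1 promoter. Since *Sox6* had 6 entries and each other matched gene 1, this count of genes cannot be set against the share of promoters. A match says only that the letters are there.

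The SOX peaks lay farther from the nearest protein-coding start site than most listed peaks, a distance that is part of the rule of assignment. It is not a distance to genes of every type. With start sites of any type, 28 opened and 34 closed peaks still had a SOX gene as the nearest. A distance of over 100 kb from the start site was found for 185 of 289 (64.0%, beside 21.1% of all listed peaks), and 149 (51.6%, beside 32.1%) were intergenic. Peaks within 1 kb of a start site of any gene numbered 16, exonic peaks 2 and intronic peaks 122. The intervals in which a SOX gene has the nearest start site were long, from 64.9 kb for *Sox21* to 1250 kb for *Sox9*, against a median of 47.1 kb over all protein-coding genes, so that long-range sites of several kinds can be counted for them. Per megabase of interval, the 10 SOX genes together had 45.9 listed peaks and the genome 29.5. The genome value includes genes without a listed peak, and the other 10 SOX genes, with 15 peaks, are not in the first value. Because the 10 genes were chosen with earlier results of these data known, the higher value cannot be read as a trait of SOX genes. *Sox13*, *Sox4* and *Sox9* had 86.9, 66.3 and 64.0 per megabase, and *Sox17* 15.9. Among all listed peaks the opened share fell with distance, from 74.3% within 1 kb to 32.5% beyond 100 kb. Among the SOX peaks it was 70.0% of 10 within 1 kb and 48.1% of 185 beyond 100 kb. *Sox9* had 41 of these 89 opened peaks, and without it, an alternative chosen after seeing the data, the share beyond 100 kb was 37.8% of 127.

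Of the other 10 SOX genes, 7 had a listed peak, beside 66.5% of all protein-coding genes. These held 15 peaks in all, 9 opened and 6 closed (60% opened, beside 50.8% of all listed peaks). Promoters opened at *Sox7* (1.49 ± 0.29), a SoxF gene, at *Sox12*, the third SoxC gene (1.26 ± 0.22 and 1.48 ± 0.25), and at *Sox15* (1.91 ± 0.40 and 2.54 ± 0.55), and no peak within 1 kb of a start site of the list was closed. *Sox3*, named after its values were seen, had 2 closed peaks, the deeper of them 1.06 kb from its start site (−2.26 ± 0.32; count 56.5). *Sox14*, a SoxB2 gene named in the same way, had 2 opened (3.56 ± 0.47 and 4.30 ± 0.47) and 2 closed peaks. The TCF/LEF genes, whose proteins also carry an HMG box and serve Wnt signaling, had 31 opened and 26 closed peaks. Their opened share of 54.4% was near the 50.8% of all listed peaks. Opened promoter peaks were listed for 3 of these 4 genes and closed ones for 1, beside 26.5% and 8.42% of all protein-coding genes. *Tcf7*, *Tcf7l1* and *Tcf7l2* had opened promoter peaks (for *Tcf7l2* up to 3.43 ± 0.34), whereas the 15 peaks of *Lef1* were closed, 2 of them at promoters (−2.18 ± 0.26 and −2.14 ± 0.44). Among 8 genes for partners of SOX proteins, 61 of 65 peaks were closed, beside 49.2% of all listed peaks. Of these 61, 35 belonged to *Chd7*, a chromatin remodeler gene without a listed promoter peak, which was named after its values were seen. Closed promoter peaks were listed for 3 of these 8 genes and an opened one for 1, beside 8.42% and 26.5% of all protein-coding genes. The closed ones were at *Pax6* (−2.60 ± 0.19), *Pou3f2* (−1.66 ± 0.29 and −1.31 ± 0.31) and *Pou3f4* (−3.46 ± 0.47), and the opened one at *Pou2f1* (1.20 ± 0.16).

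Most peaks of NE and club cell markers changed in the direction of the sort labels. Of all listed peaks, 49.2% were closed and 50.8% opened. Of all protein-coding genes, 8.42% had a closed and 26.5% an opened peak within 1 kb of a start site. Of 62 peaks of 6 NE markers, 51 were closed, and 5 of these 6 genes had a closed promoter peak, among them *Insm1* (−2.54 ± 0.20) and *Chga* (−3.29 ± 0.28). *Chga* also had 8 of the 11 opened peaks of the list, beside 6 closed ones. Of 26 peaks of the 4 club cell markers, 22 were opened, and each of these genes had an opened promoter peak, led by *Scgb1a1* (4.76 ± 0.25 and 5.07 ± 0.46). Markers of alveolar cells had opened peaks in 16 of 19 (AT1) and 11 of 11 (AT2) and ciliated cell markers in 8 of 10. Among the ciliated cell markers, the promoter of *Foxj1* opened (1.55 ± 0.21) and that of *Tppp3* closed (−2.19 ± 0.24 and −2.47 ± 0.46). Leukocyte markers had 13 opened and 5 closed peaks, of which 11 opened and all 5 closed belonged to *Ptprc*, the gene of CD45, named after its values were seen, with an opened promoter at *Cd68* (1.69 ± 0.34) and no listed peak at *Cd79a* and *Itgam*. Fibroblast markers had 10 and 13, Schwann cell markers 2 and 3. The part of other cell types in the SOX peaks was not tested, and in such bulk samples more cells with an open site and a more open site in each cell cannot be told apart.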

How the data were processed

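ATAC-seq libraries of GFP high and GFP neg cells (8 libraries, 16 runs) were grouped by the reporter status in the labels. The authors aligned the reads to mm10 with Bowtie2 2.3.4.1, removed duplicates, called peaks with MACS2, merged the peaks of all samples, counted reads per merged peak and compared the groups with DESeq2 1.28.1. The deposited signal per peak is the mean of the size-factor-normalised read counts over all libraries. The deposited log2 fold changes and their SE describe the whole comparison, GFP high against GFP neg cells, and the deposited adjusted p-values are those of the Wald test with Benjamini-Hochberg adjustment. These columns were printed as deposited; the Wald statistic and the unadjusted p-value were not used. The sources used here do not say how both pairs of 1 mouse and the lanes entered the fit. If lanes were counted as separate replicates, the mean was taken over runs, and the SE and adjusted p-values may be too small. No value per library was at hand, so the depth per library is unknown and nothing was refitted or tested.

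Peaks (1-based, mm10) were assigned by their centre to the nearest protein-coding start site of GENCODE M21 basic, and classed as promoter (within 1 kb of any start site), exon, intron or intergenic. Sequence came from GRCm38.p6 and from RefSeq promoters. Named for each gene were its promoter peaks, the largest opened and closed change, the highest count and the nearest peak; other peaks were picked after their values were seen, and other lists were named by promoter peaks. 1 marker gene and 1 promoter sequence are not reported here. The members and lists were chosen with earlier results of these data known. Alternatives tried were a larger minimum fold change, a smaller adjusted p, other assignments, merged peaks, a wider promoter, whole peaks and shorter strings. Python 3.11.15, numpy 2.4.6, pandas 2.3.3, scipy 1.17.1, matplotlib 3.10.9 and samtools 1.23.1 were used. Assignment, classes and string search were checked on simulated data.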

Additional observations from a re-analysis of the deposited data

How the results depend on the processing

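The opened share of the SOX peaks lay between 45.2% and 55.9% under the 6 other settings. Most of these settings keep a part of the same peaks, and the numbers depended on how peaks were assigned. With a start site at most 100 kb away, 56 opened and 48 closed peaks were left, and the opened median was 2.76; with the gene body and 10 kb around it, 42 and 34; and with start sites of genes of any type, 28 and 34, since noncoding genes then took peaks away. An adjusted p under 1e-05 left 83 closed peaks. Within 3 kb instead of 1 kb of a start site, the promoter peaks were 11 opened and 6 closed. Of the alternatives chosen after seeing the data, leaving out *Sox9* gave 84 opened peaks and a share of 40.2%, and leaving out *Sox11* a share of 58.2%. The direction of most peaks of a gene was kept for 10 of 10 genes with merged peaks and for 9 with a log2 fold change over 2 (*Sox2* tied). It turned for *Sox2*, *Sox4* and *Sox5* with the stricter adjusted p, for *Sox4* with the gene body and 10 kb around it, and for *Sox6* with start sites of any type. *Sox4* was tied within 100 kb (9 and 9) and with start sites of any type (1 and 1). *Sox17* kept no peak within 100 kb or under the other 2 assignments, *Sox2* none under those 2, and *Sox21* none with start sites of any type. No paired analysis was possible because the deposited tables hold one value per peak and none per library.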
